A study of Mus musculus with 4 samples.

Results

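The SR proteins and the heterogeneous nuclear ribonucleoproteins (hnRNPs) are the main sequence-specific regulators of pre-mRNA splicing. They were examined here in mouse T-helper 17 (Th17) cells, which are CD4 T cells that make interleukin 17. The genes were chosen by symbol: the numbered Srsf genes, the Hnrnp genes, Tra2a and Tra2b, Srrm1 and Srrm2, and Ptbp1, Ptbp2 and Ptbp3. Earlier results of these data were known when this rule was set. The rule found 38 genes among 50600 gene identifiers, namely 11 SR proteins, 4 SR-related proteins, 20 hnRNPs and 3 polypyrimidine tract binding (PTB) proteins. All 4 libraries belong to 1 group, Th17 primary cells of strain C57BL/6NJ, with 1 donor identifier, sex not collected and age unknown in the labels. No treatment or genotype is given; sample names inside the files include a 2 hour tag, from an event the labels do not state, and the assay is called total RNA-seq while the library protocol it links to has poly(A)+ in its name. The labels number the libraries as biological replicates 1 to 4 of different biosamples without saying whether each was its own animal or culture. The SDs and the p-values for variation therefore measure only how far these libraries differ, which may be technical. The p-values for pairs of genes ask whether the genes differ in level within these same libraries.

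SR proteins carry RNA recognition motifs and a tail rich in arginine and serine. They mostly bind exonic enhancers, recruit the U1 and U2 particles and favour inclusion of the exon. The hnRNPs coat nascent RNA and often act in the opposite direction by silencing exons, and PTB proteins bind pyrimidine tracts beside exons they repress. Many of these genes are known to regulate their own mRNAs through alternative exons or retained introns whose inclusion exposes the transcript to nonsense-mediated decay (NMD). In T cells, hnRNP LL and hnRNP L are known for the switch in splicing of the CD45 gene Ptprc after activation.

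The libraries held 36298276, 40652146, 26953724 and 25847970 fragments counted on genes in replicates 1 to 4. All 6 defining T cell genes exceeded 1 TPM (a level from counts scaled by exon length and library total), from Cd3e at 226 ± 18.8 TPM to Trac at 3565 ± 251 TPM (SD, n = 4 libraries, as for every ± below). Of 9 Th17 markers 7 reached 1 TPM, and the median of the 9 was 9.82 TPM. Irf4, Batf and Stat3 were abundant, whereas Ccr6 stood at 0.207 ± 0.177 TPM and Il23r at 0.132 ± 0.124 TPM. The cytokine gene Il17f varied between libraries, at 10.2, 7.04, 11.7 and 20.8 TPM (edgeR adjusted p = 0.0171). Markers of other cells at 1 TPM or more were 1 of 6 for B cells, 2 of 7 for myeloid and dendritic cells, 2 of 5 for NK cells and 3 of 7 for stromal and epithelial cells. Their summed levels ranged over the libraries from 0.401 to 1.89, 16.9 to 27.2, 3.19 to 5.79 and 78.9 to 94.8 TPM. Those at 1 TPM or more were, by mean, Cd79a (1.15 TPM), Cd68 (10.4 TPM), Cd74 (10.7 TPM), Eomes (1.12 TPM) and Gzma (3.14 TPM). In the list for stromal and epithelial cells they were Pecam1 (78.6 TPM), Epcam (6.71 TPM) and Col1a1 (1.35 TPM). Pecam1 made up most of that sum, and Col1a2, Krt18 and Pdgfrb rested on 7, 1 and 3 counts. Ms4a1, Ncr1, Klrb1c and Krt8 had 0 counts, and the part of these other cells in the results was not tested. Replicate 3 stood apart in the nuclear RNAs Malat1, at 427, 209, 795 and 188 TPM in replicates 1 to 4, and Neat1, at 34.8, 26.0, 58.2 and 20.7 TPM.

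All 38 members were present, with at least 1 TPM in every library, against 43.7% of 21764 protein coding genes. The median member stood at 213 TPM, 22 members lay among the 1000 most abundant protein coding genes, and the members took 1.58 ± 0.117% of all counts. Mean levels reached 500 TPM or more in 9 members, lay from 100 to under 500 TPM in 21 and from 10 to under 100 TPM in 6, and were under 10 TPM in 2. By summed TPM the hnRNPs made up 60.2 ± 2.79% of the members, SR proteins 23.8 ± 1.70%, SR-related proteins 8.55 ± 1.405% and PTB proteins 7.43 ± 0.319%. In bulk samples, fewer cells of a type and less RNA per cell cannot be told apart.

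**Figure D1:**
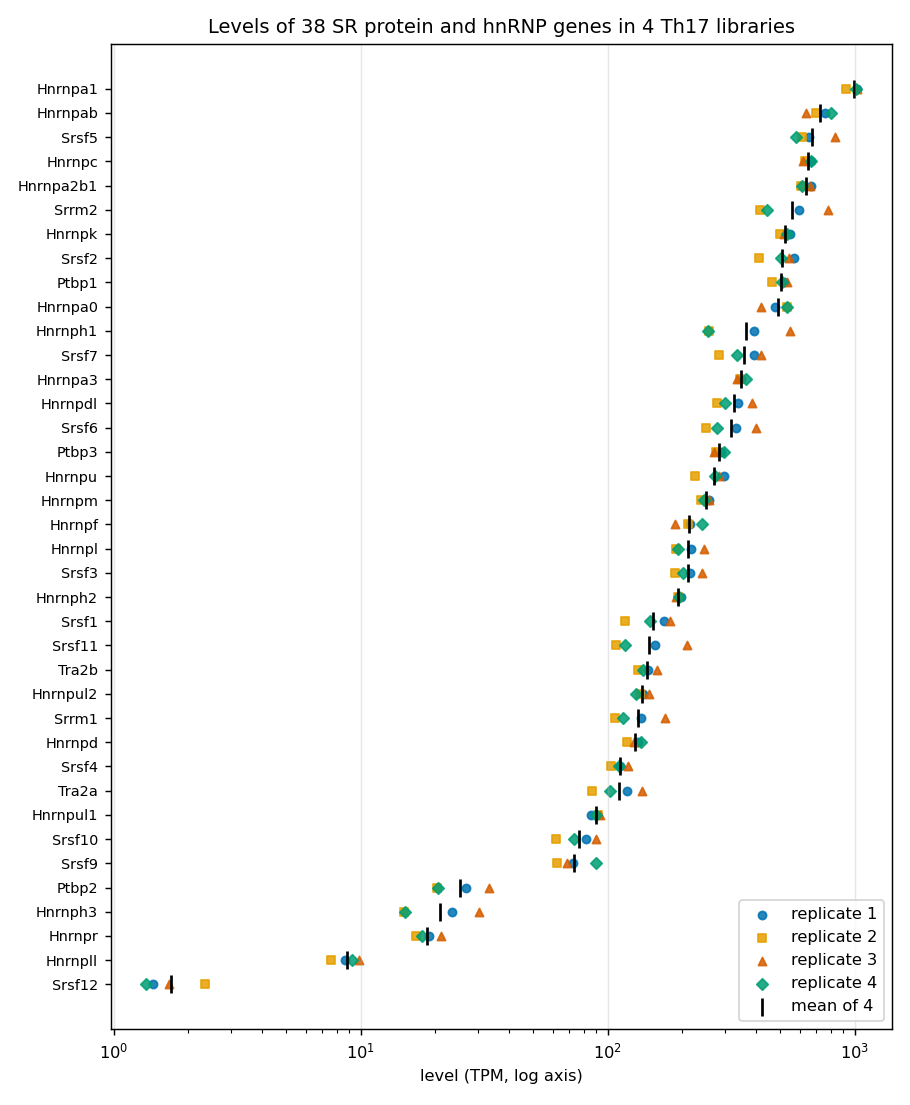
Level of each of the 38 genes in TPM on a log axis, with 1 symbol per library and a bar at the mean of the 4 libraries. The genes span from 1.71 TPM for Srsf12 to 992 TPM for Hnrnpa1, and most symbols of a gene lie close together next to that span.

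The promoters of the members were described next, by features that did not enter the choice of genes. RefSeq windows on GRCm38.p6 were found for 35 of the 38 genes, and the 250 bases before the first listed start had a median GC content of 63.6% and a median of 23 CpG dinucleotides, against 52.0% and 6 over all 27025 windows. The GC box GGGCGG was found in 27 of 35 windows (77.1%, against 32.9% of all windows), CCAAT in 18 (51.4% against 34.5%) and the ETS core CCGGAAG in 6 (17.1% against 7.05%). The E-box CACGTG was found in 3 (8.57% against 6.05%) and the TATA box TATAAA in 3 (8.57% against 13%). Both strands were searched, and the matches are descriptions of letters, not of bound sites. All windows include those of genes not expressed here, whereas every member was expressed. No comparison with other expressed genes was made, so the differences cannot be assigned to this family. Of the 35 windows, 21 were clear of annotated exons of their gene. In 30 of 35 the sequence just past the start was found in a transcript of the gene. The windows of Srrm2 and Hnrnph1, which differed most between the libraries among those clear of annotated exons, are shown with those of Tra2b and Hnrnpa2b1, which differed least among them. Each is written 5′ to 3′ with matches to these motifs in capitals, and ends at the base before the start. Srrm2 lies at chr17:23802937-23803186, plus strand, Hnrnph1 at chr11:50376740-50376989, plus strand, Tra2b at chr16:22266006-22266255, minus strand, and Hnrnpa2b1 at chr6:51469895-51470144, minus strand.
Srrm2: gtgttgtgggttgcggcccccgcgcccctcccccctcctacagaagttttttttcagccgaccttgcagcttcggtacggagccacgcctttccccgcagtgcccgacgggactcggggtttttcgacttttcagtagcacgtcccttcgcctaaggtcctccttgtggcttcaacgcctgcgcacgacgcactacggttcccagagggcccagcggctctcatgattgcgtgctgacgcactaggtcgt
Hnrnph1: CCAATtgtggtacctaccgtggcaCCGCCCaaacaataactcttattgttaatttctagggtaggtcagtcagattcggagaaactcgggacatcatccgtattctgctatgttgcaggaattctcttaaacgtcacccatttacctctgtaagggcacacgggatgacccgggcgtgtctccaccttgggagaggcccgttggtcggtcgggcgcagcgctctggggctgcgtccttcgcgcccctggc
Tra2b: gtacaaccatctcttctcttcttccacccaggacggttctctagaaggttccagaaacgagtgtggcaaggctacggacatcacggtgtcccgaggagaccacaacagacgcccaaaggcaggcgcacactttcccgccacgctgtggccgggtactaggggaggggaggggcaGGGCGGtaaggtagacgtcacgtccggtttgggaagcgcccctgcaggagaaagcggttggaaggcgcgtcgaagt
Hnrnpa2b1: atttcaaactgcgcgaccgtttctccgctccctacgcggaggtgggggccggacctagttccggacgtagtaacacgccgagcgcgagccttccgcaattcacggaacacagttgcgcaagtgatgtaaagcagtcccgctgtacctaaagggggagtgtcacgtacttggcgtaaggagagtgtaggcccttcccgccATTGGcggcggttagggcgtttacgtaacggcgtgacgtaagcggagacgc
Srrm2 held none of the motifs, Hnrnph1 a CCAAT box and, on the reverse strand, a GC box, both at the far end from the start, Tra2b a GC box and Hnrnpa2b1 a CCAAT box on the reverse strand.

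Among the SR proteins, Srsf5 was the most abundant, at 654, 612, 831 and 581 TPM in replicates 1 to 4 (mean 670 ± 112 TPM). Srsf2, which binds exonic enhancers and also works in transcription elongation, stood at 570, 410, 542 and 503 TPM. Srsf7, a shuttling SR protein also tied to mRNA export, stood at 390, 283, 418 and 335 TPM. In TPM, replicate 2 was lowest in Srsf2 and Srsf7, and replicate 3 was highest in Srsf5 and Srsf7. Srsf6 had 332, 249, 399 and 278 TPM. Srsf3, the smallest SR protein and a partner of Srsf7 in export, had 215, 188, 242 and 202 TPM. Srsf1, the founding member of the family, had 169, 117, 179 and 149 TPM. In TPM each of these 3 genes was highest in replicate 3, as were 50.2% of all genes tested, and lowest in replicate 2 (31.9%). By counts scaled with edgeR's TMM factors, Srsf1 and Srsf7 were highest in replicate 1.

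Srsf11 had 156, 108, 209 and 117 TPM, a 1.93-fold span. Srsf4 was even, at 113, 103, 121 and 111 TPM, and Srsf10, a splicing repressor when dephosphorylated, had 81.6, 61.5, 89.9 and 72.8 TPM. Srsf9 was the only SR protein with replicate 4 highest in TPM, at 72.4, 62.5, 68.4 and 89.3 TPM. Srsf12, a close relative of Srsf10, was the lowest member, at 1.45, 2.34, 1.68 and 1.36 TPM on 211 counts in all.

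Among the SR-related genes, Srrm2, a large scaffold of nuclear speckles where splicing factors are stored, stood at 598, 415, 777 and 442 TPM (mean 558 ± 167 TPM). Its partner Srrm1 had 137, 107, 170 and 115 TPM. The enhancer-binding Tra2b had 146, 132, 159 and 139 TPM, and its paralog Tra2a had 119, 86.4, 138 and 102 TPM. In TPM all 4 genes were highest in replicate 3, as were 50.2% of all genes tested, and lowest in replicate 2. By counts scaled with edgeR's TMM factors 3 of 4 were highest in replicate 3, and Tra2b was highest in replicate 1.

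The A/B hnRNPs bind exonic and intronic silencers. Hnrnpa1 stood at 1019, 921, 1021 and 1008 TPM and was the highest member. Hnrnpa2b1 stood at 663, 606, 661 and 614 TPM, Hnrnpa0 at 475, 532, 417 and 531 TPM and Hnrnpa3 at 348, 342, 334 and 362 TPM. Of the summed TPM of these 4 genes, Hnrnpa1 took 40.3 ± 1.51%, Hnrnpa2b1 25.8 ± 1.23%, Hnrnpa0 19.8 ± 2.24% and Hnrnpa3 14.1 ± 0.312%. With the length of the longest coding transcript, Hnrnpa2b1 took 56.8 ± 1.58% and Hnrnpa1 23.2 ± 0.633%. Hnrnpa1 and Hnrnpa3 share 29.3% and 28.1% of their 31-base words with transcripts of 25 and 50 other annotated genes. Fragments with several alignments were not counted, so both levels are uncertain and may be too low.

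Hnrnpab, a relative of the AU-rich element binding protein hnRNP D, was the second most abundant member, at 759, 698, 637 and 803 TPM. Hnrnpdl had 336, 277, 385 and 299 TPM and Hnrnpd, also known as AUF1, 133, 120, 128 and 137 TPM. Hnrnpab was lowest in replicate 3, the library in which Hnrnpdl was highest. Hnrnpc, which binds uridine tracts, was even in TPM, at 664, 631, 618 and 665. Hnrnpk, which binds cytosine-rich RNA, was also even in TPM, at 546, 500, 518 and 535. By TMM-scaled counts their ranges were 1.23-fold and 1.18-fold, with replicate 3 lowest in both. Hnrnpu, a nuclear scaffold protein, had 296, 225, 283 and 272 TPM, above its relatives Hnrnpul2 (139, 136, 147 and 130 TPM) and Hnrnpul1 (85.9, 91.1, 93.1 and 90.0 TPM). Hnrnpm stood at 249 ± 8.95 TPM and Hnrnpr at 18.6 ± 1.88 TPM.

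The F/H hnRNPs bind guanine runs. Hnrnph1 had 390, 257, 546 and 254 TPM (mean 362 ± 138 TPM), and Hnrnph3 23.4, 14.999, 30.2 and 15.1 TPM. Hnrnph2 stood at 198, 192, 189 and 194 TPM and had the smallest relative spread in TPM of all members (by TMM-scaled counts Hnrnpul2 had the smallest), and Hnrnpf had 216, 212, 188 and 240 TPM. Hnrnph1 therefore took 47.1, 38.04, 57.3 and 36.1% of the summed TPM of the 4 genes in replicates 1 to 4. The ratio of Hnrnph1 to Hnrnph2 ran from 1.31 to 2.89 over the libraries, whereas that of Hnrnph1 to Hnrnph3 stayed between 16.7 and 18.1. Hnrnpf and Hnrnph2 share 38.5% and 21.9% of their 31-base words with other genes, and their levels are likewise uncertain. In all, 12 members share over 10%. The others are Hnrnpk (17.1%), Srsf5 (14.1%), Hnrnpm (14.0%), Srsf3 (13.8%), Hnrnpc (13.6%), Ptbp1 (11.5%), Srsf10 (10.8%) and Tra2b (10.1%). The same limit holds for their levels and ranks.

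Hnrnpl, which binds CA repeats, stood at 218, 190, 245 and 194 TPM. Its paralog Hnrnpll, the CD45 exon silencer, stood at 8.63, 7.58, 9.88 and 9.22 TPM on 3847 counts in all. Ptbp1 stood at 519, 461, 534 and 508 TPM, Ptbp3, known from blood cells, at 287, 276, 270 and 296 TPM, and Ptbp2, known from neurons, at 26.7, 20.3, 33.1 and 20.7 TPM. Ptbp1 took 62.2 ± 1.24% of the summed TPM of the 3 PTB genes, Ptbp3 34.8 ± 1.87% and Ptbp2 3.09 ± 0.649% (5.41 ± 1.08% with the longest coding transcript as length). In the order of mean TPM over all members, the higher gene exceeded its next neighbour in 4 of 4 libraries in 9 of 37 neighbouring pairs, so most adjacent ranks did not hold in every library.

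Related members were then compared within each library, in 23 pairs, as differences of log2(TPM + 1). The pairs were chosen with earlier results of these data known, so the number of pairs with a constant direction is a description, not a test. In all 23 pairs the same gene was higher in 4 of 4 libraries, with p = 0.125 each in the exact two-sided sign-flip permutation test (0.125 after Benjamini-Hochberg adjustment over the 23 pairs), the smallest p that 4 libraries allow. Srsf10 exceeded Srsf12 by 4.84 ± 0.41, Hnrnpl exceeded Hnrnpll by 4.43 ± 0.12, Ptbp1 exceeded Ptbp2 by 4.30 ± 0.26 and Hnrnph1 exceeded Hnrnph3 by 4.03 ± 0.07. Smaller differences were found for Srsf1 over Srsf9 (1.05 ± 0.29), Hnrnpa1 over Hnrnpa0 (1.03 ± 0.22) and Ptbp1 over Ptbp3 (0.84 ± 0.11). The difference of Hnrnph1 to Hnrnph2 was 0.83 ± 0.54. With the longest coding transcript as length, Srsf10 over Srsf12 became 5.50, Hnrnpl over Hnrnpll 3.78, Ptbp1 over Ptbp2 3.62 and Hnrnph1 over Hnrnph3 4.79. Srsf1 over Srsf9 became 0.64, Hnrnpa1 over Hnrnpa0 stayed at 1.03, Ptbp1 over Ptbp3 became 1.29 and Hnrnph1 over Hnrnph2 1.96. The SDs cover the spread between libraries, not the choice of length.

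**Figure D2:**
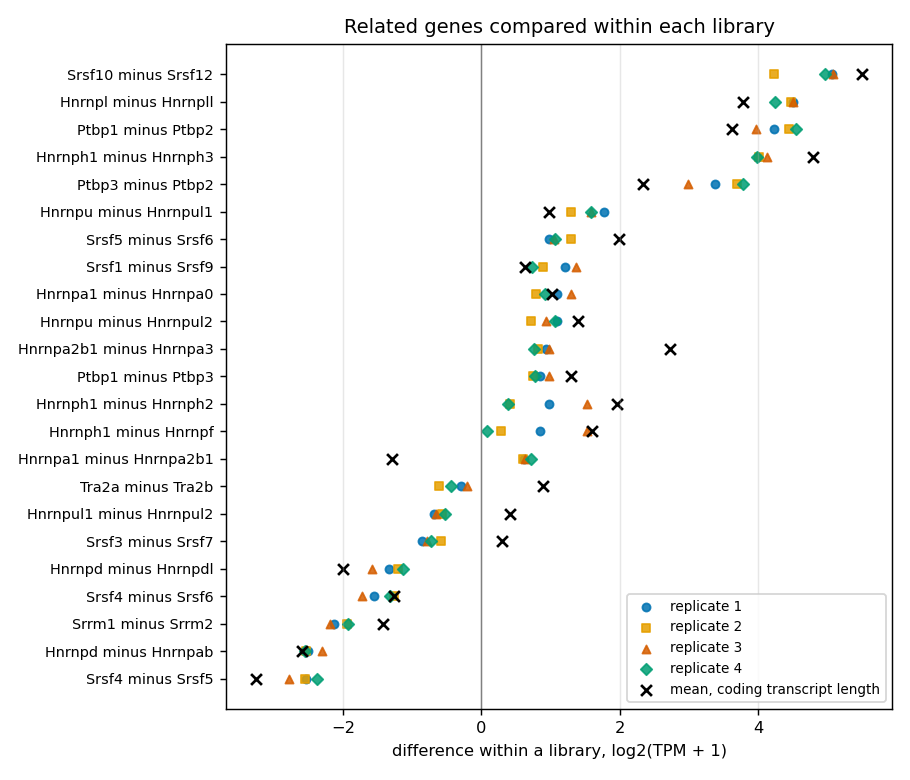
Difference of log2(TPM + 1) between related genes, with 1 symbol per library; crosses mark the mean with the length of the longest coding transcript in place of the union of exons. No pair crosses 0 between libraries, and the crosses of Hnrnpa1 minus Hnrnpa2b1, Tra2a minus Tra2b, Hnrnpul1 minus Hnrnpul2 and Srsf3 minus Srsf7 lie on the other side of 0.

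The order of the levels depended on the gene length used. The deposited length is the union of all annotated exons, and in many members much of it lies outside protein coding transcripts of GENCODE release M21, with 74.0% in Tra2a, 73.3% in Hnrnpll, 63.0% in Hnrnpa2b1 and 58.5% in Srsf5. With the longest coding transcript as length, Hnrnpa2b1 went from 636 to 1810 TPM and became the highest member, Srsf5 followed at 1271 TPM, and Hnrnpa1 was the fourth at 741 TPM. Of the 10 highest members 9 remained among the 10 highest. TPM is scaled to a fixed total over all genes, so levels moved even where the length did not. Hnrnpa1 has 1918 bases by both lengths and went from 992 to 741 TPM. Hnrnpa0 has 2678 by both and went from 489 to 365 TPM. The counts still held fragments on exons outside coding transcripts, so levels of genes with many such bases may be too high with this length. In 4 of 23 pairs the higher gene changed: Hnrnpa1 minus Hnrnpa2b1 went from 0.64 to -1.29, Tra2a minus Tra2b from -0.38 to 0.90, Hnrnpul1 minus Hnrnpul2 from -0.61 to 0.41 and Srsf3 minus Srsf7 from -0.74 to 0.30. For these 4 pairs the files do not settle which gene makes more mRNA.

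**Figure D3:**
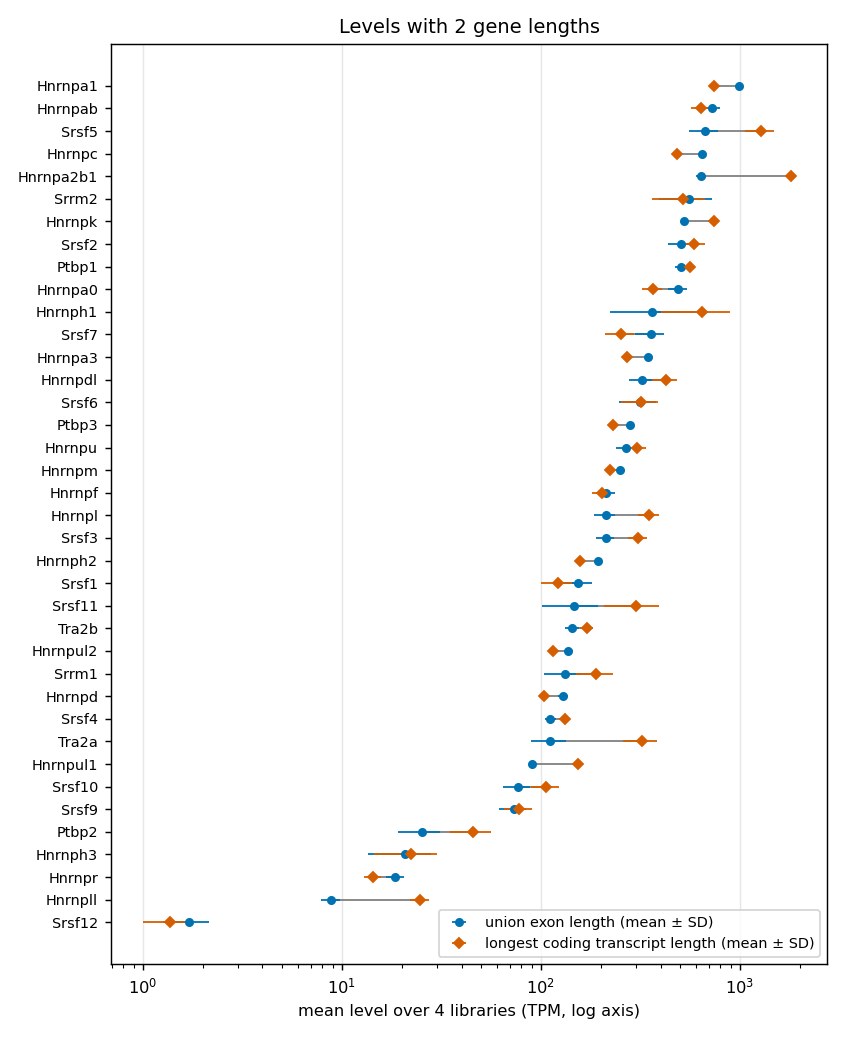
Mean level in TPM on a log axis with SD over the 4 libraries, with the union of exons (circles) and with the longest coding transcript (diamonds) as gene length. Grey lines join the 2 values of a gene, and the longest of them belong to Hnrnpa2b1, Tra2a and Hnrnpll.

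Transcript models were compared next. A transcript annotated as subject to NMD is present in 26 of 38 members, against 30.8% of 10286 protein coding genes tested for variation, and a retained intron transcript in 29 of 38, against 62.1% (14 of 20 among the hnRNPs). NMD transcripts are annotated for 9 of 11 SR proteins, 4 of 4 SR-related genes, 3 of 3 PTB genes and 10 of 20 hnRNPs. The members had a median of 9 annotated transcripts and 21.7% of exon bases outside coding transcripts, against 5 and 12.5% over the tested protein coding genes. The counts are sums over all exons of a gene, so they do not show how much of a level came from coding, retained intron or NMD transcripts.

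Variation between the libraries was tested for every gene with enough counts, as deviance from a single mean at the edgeR trended dispersion. All 38 members passed the expression filter and none varied beyond the trend at an adjusted p under 0.05, against 0.813% of 11567 genes. At an unadjusted p under 0.05 edgeR gave 4 members, against 5.98% of the genes tested. They were Hnrnph1 (1.89-fold range after TMM scaling, edgeR adjusted p = 0.117), Hnrnph3 (1.77-fold, adjusted p = 0.293), Srsf11 (1.72-fold, adjusted p = 0.562) and Srrm2 (1.67-fold, adjusted p = 0.668). With the dispersion trend of DESeq2, Hnrnph1 alone passed (adjusted p = 0.00746, against 0.813% of genes), and with limma no member did. The edgeR adjusted p of Hnrnph1 was 0.128, 0.338, 0.724 and 0.491 without replicates 1, 2, 3 and 4 in turn. All 4 genes were highest in replicate 3, second highest in replicate 1 and low in replicates 2 and 4, as Malat1 was. The myeloid marker Cd68 also followed this pattern, at 11.96, 4.88, 17.1 and 7.72 TPM, whereas the other myeloid marker above 1 TPM, Cd74, was not highest in replicate 3, and Csf1r rested on 2 counts. Replicate 3 had the lowest share of counts in mitochondrial genes (1.98%, against 2.16 to 2.40% in the others) and in ribosomal protein genes (5.06%, against 5.72 to 6.42%). The part of these features in the levels was not tested.

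By TMM-scaled counts, replicate 3 was the highest library in 14 of 38 members (30.3% of genes tested), replicate 4 in 15 (25.4%), replicate 1 in 7 (16.7%) and replicate 2 in 2 (27.6%). Replicate 2 was the lowest library in 21 members (24.6% of genes tested), replicate 3 in 15 (31.9%), replicate 4 in 2 (25.2%) and replicate 1 in none (18.3%). By TPM, replicate 2 was lowest in 26 members (31.9%). By class, replicate 3 was above the mean of the other 3 libraries in 11 of 15 SR and SR-related genes, in 6 of 20 hnRNPs and in 1 of 3 PTB genes, against 48.0% of tested protein coding genes. The median difference of replicate 3 to the others was 0.17 on the log2 scale in SR and SR-related genes and -0.10 in hnRNPs, against -0.01 over all genes tested. On the TPM scale replicate 3 stood above the others by a median of 0.14 over all genes tested, and the counts became 13 of 15, 12 of 20 and 2 of 3, against 70.2%. The medians were then 0.33 in SR and SR-related genes and 0.06 in hnRNPs. The sign for the hnRNPs changed with the scaling, as it did over all genes tested, and their median lay below that of all genes on both scales. Replicate 3 was then highest in 24 of 38 members, against 50.2%. With replicate 3 left out, replicate 1 was highest in 21 members (32.0% of genes tested), replicate 4 in 15 (30.3%) and replicate 2 in 2 (37.7%).

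**Figure D4:**
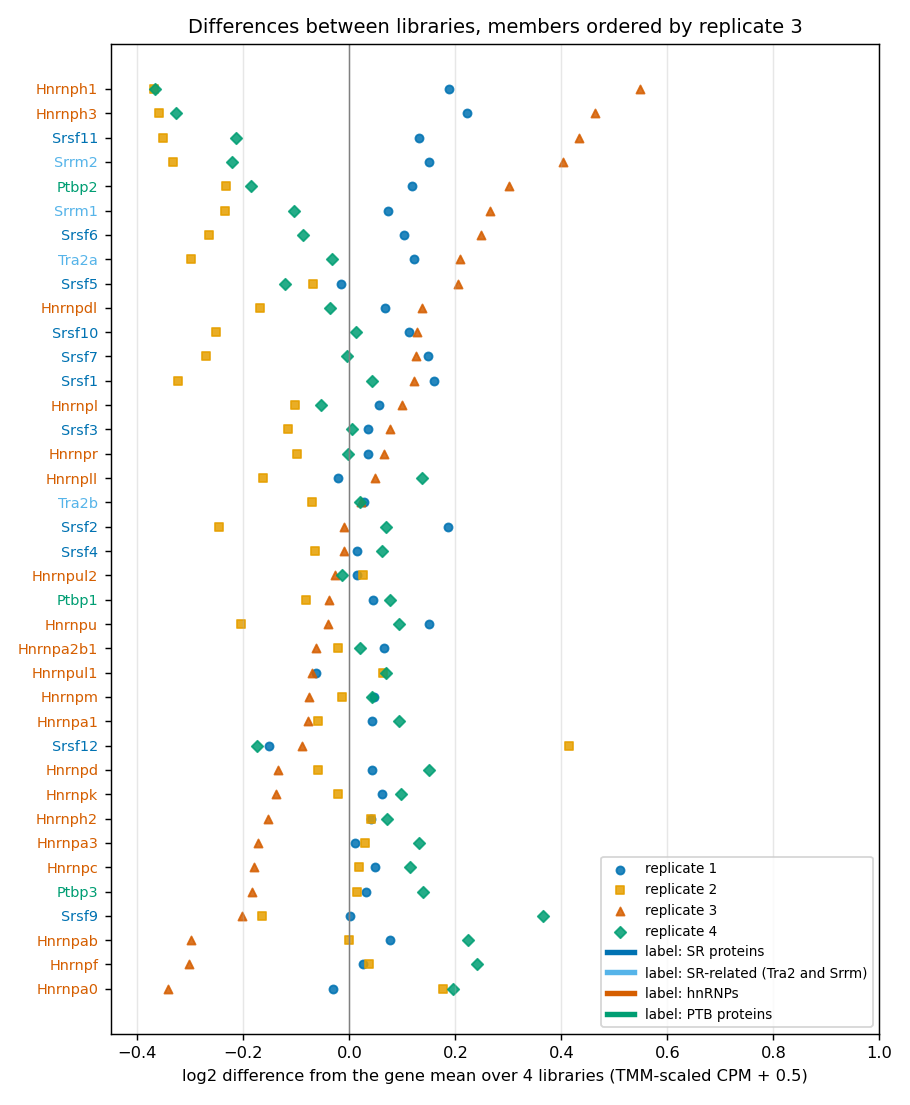
Log2 difference of each library from the mean of the gene over 4 libraries, from TMM-scaled CPM, with genes ordered by replicate 3 and label colours giving the class. Hnrnph1, Hnrnph3, Srsf11 and Srrm2 stand at the top with replicate 3 high, and Hnrnpa0, Hnrnpf and Hnrnpab stand at the bottom with replicate 3 low.

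The difference of replicate 3 was also set against the annotated exon make-up. In the 16 members with over 25% of exon bases outside coding transcripts the median difference of replicate 3 was 0.08, and 10 of 16 were above the other libraries. In the 14 members with some such bases, up to 25%, the median was 0.03 and 7 of 14 were above. In the 8 members with no such base the median was -0.22 and 1 of 8 was above. Over tested protein coding genes the same groups had medians of 0.04, -0.01 and -0.09, in that order. There 1936 of 3514, 1973 of 4062 and 1023 of 2699 genes were above. Across the 38 members Spearman's rho was 0.55 and Pearson's r 0.498, and across tested protein coding genes rho was 0.156. These are descriptions across genes of the same libraries, which are not independent, and the grouping was chosen after the values were seen.

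**Figure D5:**
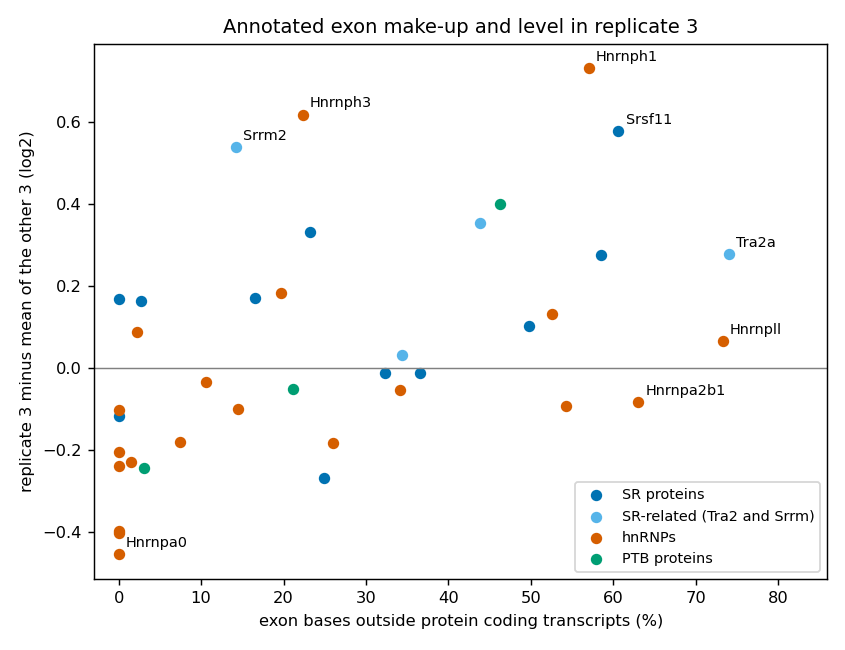
Replicate 3 minus the mean of the other 3 libraries (log2 of TMM-scaled CPM) against the percent of exon bases outside protein coding transcripts, with 1 point per gene coloured by class. Points at 0% lie mostly below 0, and Hnrnph1 and Srsf11 stand high on the right while Hnrnpa2b1, at 63.0%, lies below 0.

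Other genes of the splicing pathway were taken from fixed lists. Of 8 kinases that phosphorylate SR proteins, 7 exceeded 1 TPM, from Clk1 at 210.0 ± 53.7 TPM down to Srpk2, and Srpk3 rested on 2 counts. None of the 7 tested kinases varied beyond the trend in edgeR (0.813% of genes tested), and 1 had an unadjusted p under 0.05 (5.98%). By TMM-scaled counts 6 of the 7 were highest in replicate 3, against 30.3% of genes tested. All 31 core spliceosome genes exceeded 1 TPM, from Snrpc at 20.95 ± 1.23 TPM to Sf1 at 365 ± 41.4 TPM. None varied beyond the trend in edgeR (0.813% of genes tested), and 1 had an unadjusted p under 0.05 (5.98%). By TMM-scaled counts 3 of 31 were highest in replicate 3 (30.3% of genes tested), 13 in replicate 4 (25.4%) and 10 in replicate 1 (16.7%). Of 34 other splicing regulators 33 exceeded 1 TPM, led by Pcbp1 at 595 ± 51.4 TPM, while Rbfox2 rested on 15 counts. Of the 33 tested, 18 were highest in replicate 3 by TMM-scaled counts (30.3% of genes tested). In edgeR 7 had an unadjusted p under 0.05 (5.98% of genes tested) and 1 varied beyond the trend (0.813%). That gene was Luc7l3, a U1-associated protein, at 39.8, 23.2, 54.5 and 28.6 TPM (edgeR adjusted p = 0.015). It had the same order of libraries as Srrm2 and Srsf11.

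The NMD and exon junction factors were all present, 13 of 13, from Upf3b at 10.9 ± 1.89 TPM to Magoh at 424 ± 34.7 TPM. None varied beyond the trend (0.813% of genes tested) or had an unadjusted p under 0.05 (5.98%) in edgeR. None of the 14 splicing regulators restricted to neurons, epithelium or muscle reached 1 TPM. Among them Rbm20 was highest at 0.131 ± 0.0333 TPM, and 6 genes, Nova1 among them, were without a single count, so that levels of up to 0.116 CPM (3 counts) were not detectable in the shallowest library. Intervals and limits cover counting error only.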

How the data were processed

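RNA sequencing covered 4 libraries of 1 group. Unnormalized counts of fragments per gene were deposited, from featureCounts 1.4.6-p4 with GENCODE M13 exons on mm10, per the file headers. Read pairs were counted as fragments with both ends mapped and reverse strandedness, and no option to count fragments with several alignments was set. The aligner version was not stated in the sources read. The Length column, a value of another kind, is the union exon length in the authors' deposited tables.

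TPM was computed here. Symbols matched 50376 of 50600 identifiers (GENCODE M21). Variation between libraries was tested with edgeR 4.0.16 in R 4.3.3 (intercept only, TMM, filterByExpr, 11567 genes, deviance at the trended dispersion against chi-square with 3 degrees of freedom, Benjamini-Hochberg, threshold 0.05), checked on simulated counts, with limma 3.58.1 and DESeq2 1.42.0 as alternatives. With 1 group no quasi-likelihood test of a coefficient applies. Total counts of 25847970 to 40652146 put 3 counts, the limit that a count of 0 allows, at 0.0738 to 0.116 CPM. Shared sequence is the percent of distinct 31-base words of M21 transcripts found in another gene. Promoter windows are RefSeq's (GRCm38.p6), first listed per gene, and a printed window holds no exon of the deposited tables.

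Members, pairs and lists were chosen with earlier results of these data known. Named with values per library are the 10 highest members, those that vary and those under 1 TPM. Pair members and members with a library far from the rest are named likewise. Of other lists, the highest, the lowest and those that vary are named. Markers of other cells at 1 TPM or more are named too. The value of 1 marker gene is not reported here. Alternatives were other normalizations, filters, tools, lengths, pseudocounts (1 and 0.1 TPM) and leaving out each replicate.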

Additional observations from a re-analysis of the deposited data

Results flagged for a closer look

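Of the 38 members, 1 had a library far from the other 3 in TPM. Hnrnpa1 stood at 921 TPM in replicate 2 and between 1008 and 1021 TPM in the others, and the gap of replicate 2 took 0.867 of the whole range, above the 95% critical value of Dixon's test for 4 values. Chance passes about 1 in 20 genes by this measure. By TMM-scaled CPM Hnrnpa1 had 574, 534, 528 and 594 in replicates 1 to 4. Replicate 3 was then lowest and replicate 2 close to it (edgeR unadjusted p = 0.918 for variation between libraries).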

How the results depend on the processing

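All 38 members reached 1 TPM in every library with the other length, with TMM rescaling and without each replicate, and 36 reached 10 TPM. The count of members varying between libraries was 0 under each alternative but the dispersion trend of DESeq2, which gave 1, Hnrnph1; its adjusted p ranged from 0.00746 to 0.817 over the alternatives. The count over all genes was 94, fell to 5 with limma, and was 35 to 60 with 1 replicate left out, where fewer samples enter the fit. The members took 1.72% of counts without mitochondrial and ribosomal protein genes, and 1.53 to 1.62% with 1 replicate left out. With the length of the longest coding transcript, 4 pair differences turned: Srsf3 minus Srsf7 to 0.30, Tra2a minus Tra2b to 0.90, Hnrnpa1 minus Hnrnpa2b1 to -1.29 and Hnrnpul1 minus Hnrnpul2 to 0.41; the division by another length makes this change. The other 19 pairs kept their direction under that length, and all 23 did with a pseudocount of 0.1 TPM and without each replicate. Mean levels moved by over 1 SD in 32 of 38 members under that length and in 0 under TMM rescaling. The 32 include members of unchanged length, such as Hnrnpa1, because TPM is rescaled over all genes. The number of members highest in replicate 3, chosen after seeing the data, was 14 by TMM and 24 by TPM. No paired analysis was possible because there is 1 group.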
